A study of Mus musculus with 10 samples.

Results

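Blocking the TGFß receptor kinase ALK5 in basal cell carcinoma (BCC) cells with SB431542 was followed by lower levels of 8 of 15 regulators of TGFß signaling, mostly inhibitors of it, and 15 of 29 secreted and matrix genes, and by higher levels of 15 of 26 outputs and feedback inhibitors of ERK signaling and 27 of 40 genes of DNA replication. Over all genes tested, 10.0% were lower and 10.2% higher. These lists were chosen with earlier results of these data known. Calls kept in every fit that left out 1 library numbered 5, 12, 9 and 7 in the same order. The comparison was made across all genes. It took the 3 libraries of cells given SB431542 and the 3 DMSO libraries of the same table, 6 of the 10 RNA-seq libraries of the series. The other 4 libraries are a separate experiment with the AP-1 inhibitor T-5224, with its own DMSO controls. Each of the 6 libraries came from ASZ001, a single mouse BCC cell line, kept for 24 h in low-serum 154CF medium (CaCl2 at 0.05 mM, with chelated serum, FBS, at 0.2%) with DMSO, the vehicle, or with 10 µM SB431542. The study describes its replicates as biological. Whether each was a culture of its own is not given in the labels, so p-values measure the spread between these libraries of a single cell line.

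TGFß and activins bind pairs of receptor kinases at the cell surface, and the type I receptor (ALK5, encoded by Tgfbr1, for TGFß) phosphorylates SMAD2 and SMAD3. These enter the nucleus with SMAD4 and switch genes on, often together with AP-1 and other partners. Among the first genes they induce are inhibitors of the pathway, so that signaling dampens itself. SB431542 occupies the ATP site of ALK5 and of the related activin and nodal receptors ALK4 and ALK7. In skin, TGFß is known for restraining keratinocyte growth and for inducing matrix proteins.

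The files hold RPKM, the reads on a gene per kilobase of its length and scaled to the reads of its library, so a level can be compared between genes, but a change in the total RNA of a cell cannot be seen, nor can fewer cells of a type be told apart from less RNA per cell. The libraries held between 36.1 and 49.2 M reads. Of 17658 genes with a usable name, 10842 had a mean of at least 1 RPKM and were tested. Of 20 keratinocyte and BCC identity genes, 20 were at 1 RPKM or more. Their summed level, with Krt5 the most abundant, was 12900 to 13100 RPKM in the DMSO libraries and 9260 to 9860 RPKM with SB431542. By the test described below, 7 of the 20 were lower and 2 higher (35.0% and 10.0%), with a median log2 fold change of -0.12. Over all genes tested the shares were 10.0% and 10.2%. Markers of other cell types were low, with 2 of 14 for fibroblasts, 2 of 18 for immune cells, 2 of 12 for endothelial cells and 1 of 9 for melanocytes at 1 RPKM or more, and Cd3e, Tyrobp, Cdh5, Kdr, Lum, Mlana and Sox10 were at 0 or not listed. DMSO replicate 1 stood apart. Its log2 values had an SD of 0.272 about the other replicates of the group. The same measure was 0.161 and 0.190 in the remaining controls, and the treated libraries had 0.123 to 0.127. Across 9511 genes, its deviation from the other DMSO libraries had a Spearman correlation of -0.249 with the GC content of the transcript. Counts for the main gene lists are therefore also given without it.

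SB431542 lowered 1085 genes and raised 1107, or 10.0% and 10.2% of the genes tested. The test was limma on log2(RPKM + 0.5), the scale of every log2 fold change given here, with calls below 0.05 after adjustment. Most of these changes were small. Of the lower genes 94.2%, and of the higher genes 97.7%, changed by 2-fold or less, and 63 genes (0.581%) fell and 25 (0.231%) rose by more than 2-fold. Every treated library was under every control in 21.3% of the genes tested and over every control in 23.9%. This was so for 1084 of the 1085 lower genes, the exception being Isg15, and for the 1107 higher genes. Without DMSO replicate 1 there were 1900 lower and 2163 higher genes, and 59 and 21 beyond 2-fold. Over the same 10842 genes this fit called 17.5% lower and 19.9% higher, the shares against which list counts without that library are to be read. A call kept in each of the 6 fits that left out 1 library is called held below, and 403 lower and 256 higher genes held.

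**Figure D1:**
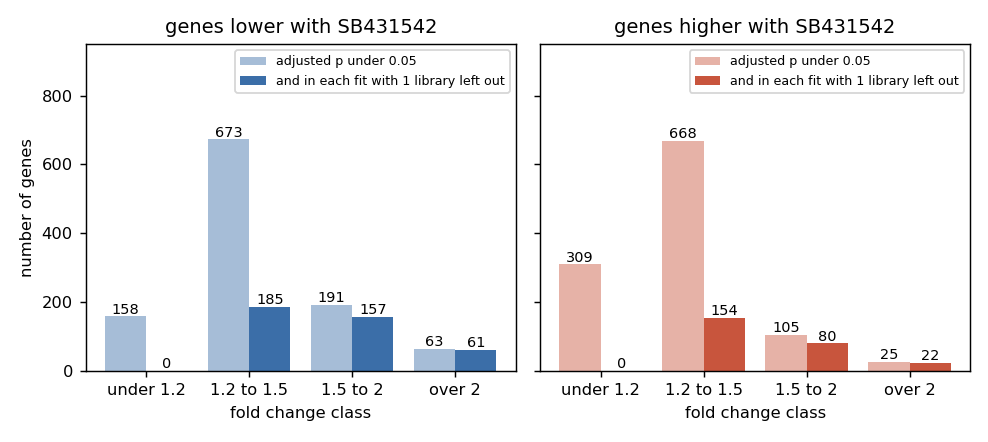
Number of genes lower (left) and higher (right) with SB431542 by fold change class on the log2(RPKM + 0.5) scale. Pale bars count genes at an adjusted p under 0.05 and dark bars those also called in each fit with 1 library left out. Of the genes beyond 2-fold, 61 of 63 lower and 22 of 25 higher genes held, and none of the 158 lower and 309 higher genes with under 1.2-fold change did.

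Among genes whose groups did not overlap, the 10 largest falls included 3 genes that inhibit TGFß family signaling (Pmepa1, Fst and Ldlrad4) and the widely used TGFß target Ctgf. The 10 largest rises included the ETS factors Etv5 and Etv4 and the feedback inhibitor Spry1, all induced by ERK signaling. Pmepa1, a membrane protein that binds and sequesters SMAD2 and SMAD3, was at 49.4, 45.9 and 43.0 RPKM in the DMSO libraries and at 3.21, 3.16 and 3.50 RPKM with SB431542. Its groups lay far apart, and the level with SB431542 was 7.14% of that in DMSO (log2 fold change -3.62, standard error 0.07, adjusted p = 9.50e-07). Pmepa1 lies on mm9 chromosome 2 from 173049959 to 173102034.

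C1qtnf3, a secreted protein of the C1q and TNF-related family, was at 4.74, 5.24 and 4.92 RPKM in DMSO and at 0.328, 0.437 and 0.368 RPKM with SB431542 (log2 fold change -2.64, adjusted p = 2.50e-05). Ctgf, a matricellular protein that is a target of both SMADs and YAP, fell from 21.9, 21.0 and 21.8 RPKM to 3.65, 3.72 and 4.53 RPKM (-2.31, adjusted p = 2.50e-05). In both genes the replicates were close together, and the lack of overlap between groups was a condition for naming them. Ackr3, a scavenger receptor for the chemokine Cxcl12, fell from 16.7 ± 1.46 to 3.36 ± 0.361 RPKM (SD, n = 3 each here and below). The other large falls were in the serine protease Prss46 (-2.05), the adenylate kinase Ak1 (-1.97), the activin antagonist Fst (-1.90), the cardiac troponin Tnnt2 (-1.85) and Ldlrad4 (-1.77), and each of these held. Isg15 (-1.81) had a change of this size too, but its groups overlapped, and it is described with the interferon-stimulated genes.

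**Figure D2:**
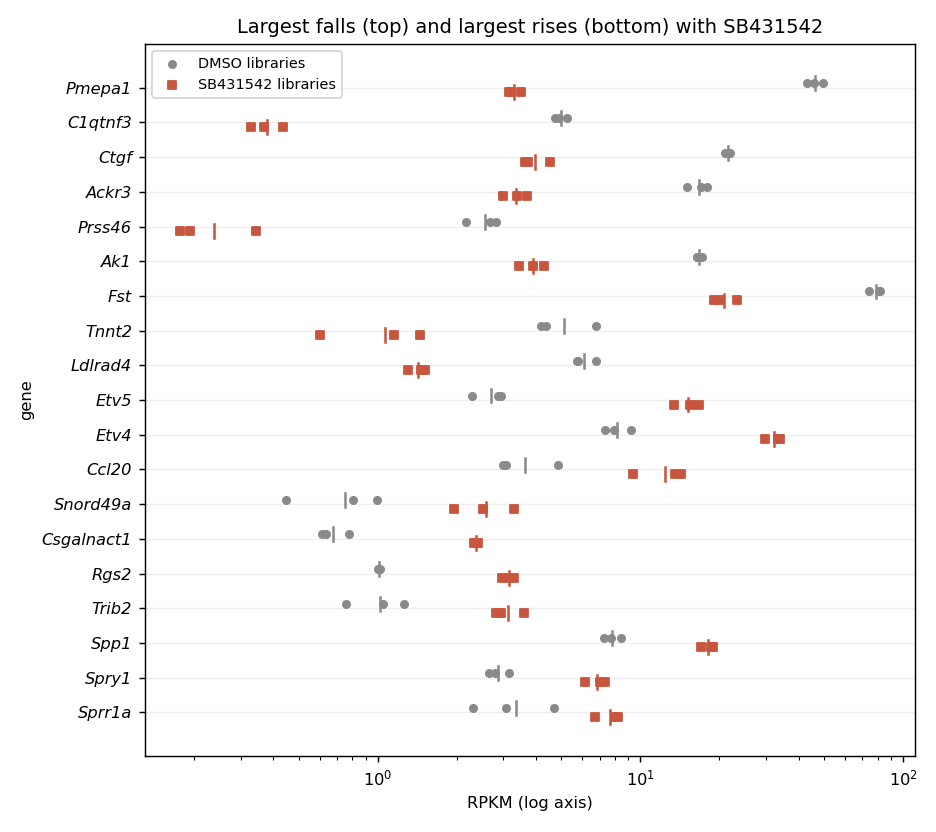
RPKM of each library (log axis) for 9 of the 10 genes with the largest fall and the 10 with the largest rise with SB431542, chosen for that size among genes whose groups do not overlap. Circles are the 3 DMSO libraries, squares the 3 SB431542 libraries and ticks the group means. Pmepa1 falls from a mean of 46.1 to 3.29 RPKM while Etv5 rises from 2.70 to 15.2 RPKM.

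Among the rises, Etv5 went from 2.87, 2.93 and 2.29 RPKM in DMSO to 13.4, 16.7 and 15.4 RPKM with SB431542 (log2 fold change 2.29, standard error 0.11, adjusted p = 4.82e-05). It lies on mm9 chromosome 16 from 22381382 to 22439792. Etv4 went from 7.31, 9.19 and 7.91 RPKM to 29.7, 33.9 and 33.4 RPKM (1.93, adjusted p = 4.82e-05), so that every treated library of both genes was several times above every control. The chemokine Ccl20 rose with more spread, from 3.069, 4.840 and 2.997 RPKM to 9.36, 14.3 and 13.6 RPKM (1.65, adjusted p = 0.00260). Csgalnact1, an enzyme of chondroitin sulfate synthesis, rose by 1.29, the G protein regulator Rgs2 by 1.27, the pseudokinase Trib2 by 1.26, the secreted phosphoprotein Spp1 (osteopontin) by 1.17 and Spry1 by 1.12. Snord49a, a short RNA on mm9 chromosome 11 from 62416952 to 62417023 with 0.748 ± 0.277 RPKM in DMSO (log2 fold change 1.31), rests on few reads and is uncertain. The cornified envelope gene Sprr1a (1.12, adjusted p = 0.0114) lost its call without SB431542 replicate 1 or 2.

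SMADs bind the short element CAGAC, AP-1 binds TGACTCA and the YAP partner TEAD binds CATTCC, and these letters were looked for on both strands in promoter windows from 250 bases before to 50 after the start (RefSeq, GRCm38.p6). Windows were found for 42 of the 63 genes that fell by more than 2-fold, 16 of the 25 that rose and 8656 of the genes tested. CAGAC stood in 64.3% of 56 windows of the genes that fell, 38.9% of 18 windows of those that rose, 46.4% of the windows of all genes tested and 49.6% of all 32851 windows of the table. CATTCC stood in 14 of the 56 windows of the genes that fell, 4 of the 18 of those that rose, 11.7% of the windows of tested genes and 14.7% of all windows. In the same order, the shares for TGACTCA were 7.14%, 5.56%, 3.68% and 5.20%. The full element GTCTAGAC, which holds no CAGAC, was in 0 of 56 and 0 of 18 windows and in 0.213% of all windows. For the wider sets at an adjusted p under 0.05, CAGAC was in 52.1% of the windows of lower genes and 43.3% of those of higher genes. A match describes these letters only.

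The promoters of 3 genes that fell, C1qtnf3, Gadd45g and Col7a1, and of 2 that rose, Sprr1a and Etv5, show how the letters lie. These examples were not chosen by a rule and do not stand for the sets. CAGAC was in 36 of the 56 windows of the genes that fell and in 7 of the 18 of those that rose. The 250 bases before the start are printed 5′ to 3′ on the strand of the gene, with CAGAC (or GTCTG, the same on the other strand) and TGACTCA (or TGAGTCA) in capitals. They are on GRCm38.p6, C1qtnf3 at chr15:10952082-10952331 (plus strand), Gadd45g at chr13:51846425-51846674 (plus), Col7a1 at chr9:108953336-108953585 (plus), Sprr1a at chr3:92485882-92486131 (minus) and Etv5 at chr16:22439571-22439820 (minus, the upstream one of its starts).
C1qtnf3: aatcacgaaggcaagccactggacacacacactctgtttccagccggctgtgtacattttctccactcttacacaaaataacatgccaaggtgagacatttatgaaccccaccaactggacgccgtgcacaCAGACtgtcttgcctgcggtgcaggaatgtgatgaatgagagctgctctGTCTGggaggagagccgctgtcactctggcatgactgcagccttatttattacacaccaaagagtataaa
Gadd45g: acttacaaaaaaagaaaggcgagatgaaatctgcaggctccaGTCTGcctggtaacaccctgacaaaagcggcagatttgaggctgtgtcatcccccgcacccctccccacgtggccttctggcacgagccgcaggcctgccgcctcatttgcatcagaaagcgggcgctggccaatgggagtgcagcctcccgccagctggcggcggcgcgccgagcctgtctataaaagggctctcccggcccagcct
Col7a1: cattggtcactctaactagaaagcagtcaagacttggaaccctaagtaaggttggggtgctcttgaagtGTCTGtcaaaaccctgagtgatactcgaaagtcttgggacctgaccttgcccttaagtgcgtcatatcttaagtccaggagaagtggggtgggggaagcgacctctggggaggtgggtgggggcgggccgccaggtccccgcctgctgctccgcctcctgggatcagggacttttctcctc
Sprr1a: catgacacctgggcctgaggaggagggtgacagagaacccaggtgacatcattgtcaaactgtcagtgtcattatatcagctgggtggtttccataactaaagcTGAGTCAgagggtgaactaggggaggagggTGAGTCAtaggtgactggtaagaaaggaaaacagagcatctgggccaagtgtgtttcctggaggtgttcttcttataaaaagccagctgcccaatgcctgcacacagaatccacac
Etv5: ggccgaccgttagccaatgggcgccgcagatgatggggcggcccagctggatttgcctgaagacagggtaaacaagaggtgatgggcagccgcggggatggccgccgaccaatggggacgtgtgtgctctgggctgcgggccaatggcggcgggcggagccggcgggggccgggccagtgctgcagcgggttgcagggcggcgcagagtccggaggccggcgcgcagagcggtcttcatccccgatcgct
C1qtnf3 holds 2 CAGAC elements, Gadd45g and Col7a1 hold 1 each, Sprr1a holds 2 AP-1 matches, and Etv5 holds none of these letters.

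Of 15 feedback and other regulators of TGFß signaling tested, 8 were lower and 0 were higher, against the 10.0% and 10.2% of all genes, and 5 of the 8 held. Without DMSO replicate 1, 8 were lower and 2 higher. The 8 lower genes were inhibitors of TGFß or BMP signaling. Skil encodes SnoN, a nuclear repressor of SMADs. It was at 7.64, 7.84 and 7.70 RPKM in DMSO and at 2.38, 2.39 and 2.62 RPKM with SB431542 (log2 fold change -1.47, standard error 0.07, adjusted p = 3.54e-05), with almost no spread in either group. Ldlrad4, which keeps SMAD2 and SMAD3 from the receptor, fell from 6.76, 5.75 and 5.79 RPKM to 1.46, 1.52 and 1.30 RPKM. Smad7, the inhibitory SMAD of the pathway, fell from 3.29 ± 0.366 to 1.67 ± 0.0522 RPKM (-0.80, adjusted p = 0.00194), and the repressor Tgif1 from 25.8 ± 1.78 to 15.988 ± 0.553 RPKM (-0.67, adjusted p = 9.79e-04). Smad6 (-0.52), the decoy receptor Bambi (-0.43) and Ski (-0.17) were lower by less, and their calls were lost in some of the fits that left out a library. The median over the 15 genes was -0.17, against 0.01 over all genes tested. The ubiquitin ligases Smurf1, Smurf2 and Nedd4l, the phosphatase Ppm1a, the repressor Tgif2, the deubiquitinase Usp15, which sustains receptor signaling, and the growth factor Pdgfa did not pass the test.

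A separate list held the TGFß and activin ligands and the proteins that bind them, their receptors and Smad2, Smad3 and Smad4. Of 18 of these genes tested, 5 were lower and 1 was higher (6 and 2 without DMSO replicate 1), all 6 held, and all 6 encode secreted proteins. Tgfbr1, the gene of the drug target ALK5, was at 10.2, 11.1 and 10.5 RPKM in DMSO and at 13.1, 11.7 and 12.5 RPKM with SB431542 (log2 fold change 0.22, adjusted p = 0.0506), so the groups did not overlap but the test was just missed. Acvr1b (ALK4) had 15.5 ± 1.39 and 14.1 ± 0.961 RPKM (-0.14, adjusted p = 0.272), and Acvr1c (ALK7) was at 0.006 RPKM or less in every library. Fst, which binds activins, fell from 74.4, 81.2 and 82.0 RPKM to 19.1, 20.2 and 23.4 RPKM (adjusted p = 3.42e-05), and its relative Fstl3 fell by 0.61 on the log2 scale. Inhba, the activin A subunit on mm9 chromosome 13 from 16103684 to 16119044, fell from 28.6, 26.1 and 22.8 RPKM to 11.7, 11.9 and 12.9 RPKM (-1.05, adjusted p = 4.87e-04). Inhbb, the subunit of activin B, moved the other way, from 40.2 ± 1.97 to 51.0 ± 1.65 RPKM (0.34, adjusted p = 0.00772). Inhba and the activin antagonists were thus lower together, and Inhbb was the single member called higher. The ligand Tgfb3 fell from 1.60 ± 0.0455 to 0.778 ± 0.120 RPKM, and Ltbp1, which stores latent TGFß in the matrix, from 33.8 ± 0.697 to 24.4 ± 0.892 RPKM.

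Of 29 secreted and matrix genes linked to TGFß, 15 were lower and 3 were higher (median -0.31), and 12 and 2 of them held. The counts were 16 and 4 without DMSO replicate 1. Thbs1, thrombospondin 1, which can release active TGFß, was one of the most abundant. It went from 204, 208 and 198 RPKM to 63.8, 69.3 and 72.7 RPKM (log2 fold change -1.56, adjusted p = 2.62e-05). Col7a1, the collagen of anchoring fibrils, on mm9 chromosome 9 from 108855631 to 108886920, fell from 40.9, 49.5 and 51.8 RPKM to 22.7, 22.2 and 22.2 RPKM (-1.06, adjusted p = 4.93e-04). The remaining falls that held were smaller, in the metalloprotease Mmp14 (-0.95), its inhibitor Timp3 (-0.84), tenascin C (Tnc, -0.83), the parathyroid hormone-related peptide Pthlh (-0.76), Tgfbi (-0.71), the CCN protein Cyr61 (-0.69), Sparc (-0.37) and Col4a2 (-0.30). Not all of the matrix fell. Fibronectin (Fn1) was at 220 ± 11.1 RPKM in DMSO and 206 ± 6.54 RPKM with SB431542, with overlapping groups (-0.09, adjusted p = 0.293). The CCN protein Nov rose from 4.71, 5.08 and 4.24 RPKM to 10.8, 10.9 and 9.96 RPKM (1.09, adjusted p = 2.70e-04), opposite to its relatives Ctgf and Cyr61, and the proteoglycan Dcn, which binds TGFß, rose by 0.68. Dcn is also the most abundant of the fibroblast markers, whose summed level was 4.01 to 4.22 RPKM in DMSO and 4.32 to 4.72 RPKM with SB431542. Only 2 of these markers were tested, and 1 was higher (Dcn) and 1 was lower, a call that did not hold. The part of such cells was not tested.

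Genes that fell by 2-fold or less held in 342 cases and those that rose in 234. By adjusted p, the leading falls of this size were in Bbox1, Mmp14, Sulf1, Hip1, St3gal5, Tnc, Htra1, Klf10, Gm15867 and Marcksl1. Bbox1, the last enzyme of carnitine synthesis, was at 23.576, 22.582 and 23.019 RPKM in DMSO and at 11.736, 11.407 and 11.009 RPKM with SB431542 (log2 fold change -0.99, standard error 0.05, adjusted p = 8.71e-05). Klf10, a transcription factor known as an early TGFß-inducible gene, fell from 26.7, 27.8 and 25.8 RPKM to 15.1, 13.8 and 14.0 RPKM (-0.88). Htra1, a secreted protease, fell least of the 10, from 267, 272 and 278 RPKM to 164, 168 and 169 RPKM (-0.70, adjusted p = 2.14e-04). In each of these genes the gap between the groups was several times the range within either group. They were picked for a small adjusted p and no overlap, so this describes the choice. Sulf1 (-0.91) edits heparan sulfate, Hip1 (-0.84) takes part in clathrin-mediated uptake, St3gal5 (-0.94) makes the ganglioside GM3, and Marcksl1 (-0.75) binds actin at the membrane. Gm15867 (-0.98), an RNA with no known role, had 5.03 ± 0.106 and 2.30 ± 0.0841 RPKM.

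The leading rises of 2-fold or less were in Pcx, Lgals1, Odc1, Ccnd1, Cdca7, Zfp36l2, Gsta4, Cpne2, Sat1 and Tcf7. Pcx, pyruvate carboxylase, was at 4.51, 4.80 and 4.51 RPKM in DMSO and at 9.26, 9.05 and 8.77 RPKM with SB431542 (log2 fold change 0.90, adjusted p = 2.14e-04). Odc1, which starts polyamine synthesis, rose from 42.3, 44.0 and 44.9 RPKM to 71.4, 76.3 and 78.4 RPKM (0.78, adjusted p = 2.69e-04). Sat1, which acetylates polyamines for export and breakdown, rose as well, from 19.5, 20.5 and 19.2 RPKM to 34.6, 37.4 and 32.9 RPKM (0.81, adjusted p = 3.54e-04). In both genes every treated library was above every control, which the rule that named them required. Galectin 1 (Lgals1) rose by 0.76, the glutathione transferase Gsta4 by 0.85, the copine Cpne2 by 0.85, the Myc and E2F target Cdca7 by 0.70, the RNA-binding protein Zfp36l2 by 0.62 and the Wnt effector Tcf7 by 0.75, and each of the 20 leading genes held.

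**Figure D3:**
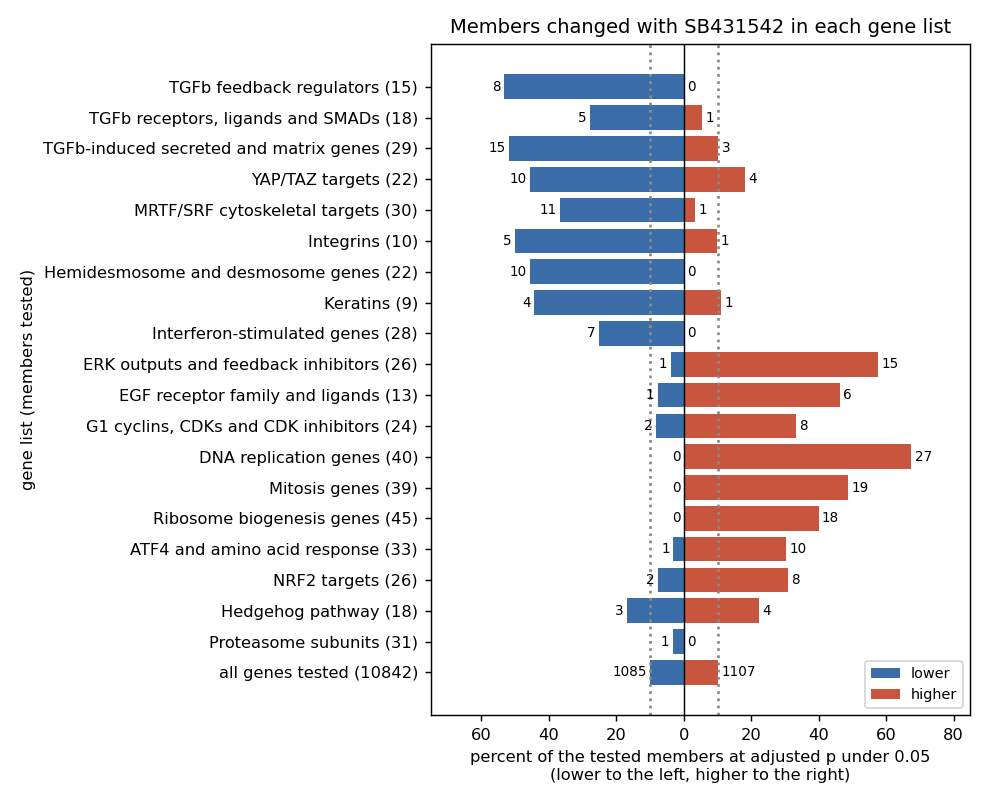
Percent of the tested members of each gene list that were lower (blue, to the left) or higher (red, to the right) with SB431542 at an adjusted p under 0.05, with the number of genes at the end of each bar and the number tested in brackets. Dotted lines mark the 10.0% lower and 10.2% higher of all genes tested. DNA replication genes reach 67.5% higher and TGFß feedback regulators 53.3% lower.

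Of 26 ERK signaling outputs and feedback inhibitors tested, 15 were higher and 1 was lower (median 0.50, against 0.01 for all genes), and 9 of the rises held. With DMSO replicate 1 left out, 18 were higher and 1 lower. Besides Etv5, Etv4 and Spry1, those that held were the ERK phosphatases Dusp6 (1.06) and Dusp4 (1.04), the urokinase receptor Plaur (0.95) and cyclin D1 (Ccnd1, 0.99). Spry2 (0.84) and Spred1 (0.51), inhibitors of signaling from receptor tyrosine kinases, also held. Dusp6 went from 19.2, 21.1 and 19.7 RPKM to 38.5, 42.7 and 45.9 RPKM (adjusted p = 2.69e-04). Spry2 went from 4.80, 5.76 and 5.19 RPKM to 9.34, 10.5 and 9.49 RPKM (adjusted p = 0.00104). Feedback inhibitors that act upstream of ERK (Spry1, Spry2, Spred1) and at ERK itself (Dusp4, Dusp6) were thus higher in every treated library. The one member that fell was the AP-1 subunit Fosl2, from 44.978, 54.657 and 56.262 RPKM to 33.8, 33.8 and 32.5 RPKM (-0.62, adjusted p = 0.00400). Several ligands of EGF family receptors rose too, 6 of the 13 genes of that family tested, with 1 lower. Epgn (epigen) rose from 14.5, 14.9 and 12.6 RPKM to 22.3, 27.7 and 28.3 RPKM (0.87, adjusted p = 0.00230) and Nrg2 from 0.691 ± 0.0353 to 1.93 ± 0.143 RPKM (1.03), and both held. Areg (0.95), Nrg1 (0.85), Ereg (0.61) and Tgfa (0.30) were called but lost the call when some libraries were left out.

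Of 40 DNA replication genes tested, 27 were higher and 0 were lower, with a median log2 fold change of 0.26, and 39 of 40 had a positive value. The calls of 7 of them held, and without DMSO replicate 1 there were 34 calls. Tk1, the thymidine kinase, went from 72.1, 88.1 and 93.3 RPKM to 129, 135 and 138 RPKM (0.67, adjusted p = 0.00442). The replication helicase subunit Mcm3 went from 54.6, 55.6 and 58.4 RPKM to 74.4, 75.6 and 77.2 RPKM (0.43, adjusted p = 0.00196), and the licensing factor Cdt1 from 24.2, 30.7 and 30.2 RPKM to 40.7, 42.7 and 43.6 RPKM (0.58, adjusted p = 0.00690). For Tk1 and Cdt1, DMSO replicate 1 was the lowest library. Pcna, the sliding clamp, rose by 0.39 (adjusted p = 0.00995) and lost its call without SB431542 replicate 3.

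Of 39 mitosis genes, 19 were higher and 0 were lower (median 0.22), 6 held, and 36 were higher without DMSO replicate 1. Cdk1 rose from 32.6, 36.1 and 37.8 RPKM to 48.5, 48.9 and 50.4 RPKM (0.47, adjusted p = 0.00380), and its partner Ccnb1 from 62.3 ± 7.24 to 87.9 ± 1.54 RPKM (0.50). The proliferation marker Mki67 showed how DMSO replicate 1 bore on such counts. It was at 64.2, 44.2 and 43.4 RPKM in DMSO and at 52.3, 53.0 and 61.7 RPKM with SB431542 (0.16, adjusted p = 0.493), so the groups overlapped through that library, and the log2 fold change was 0.34 without it. Among 24 G1 regulators, 8 were higher and 2 were lower (13 and 3 without DMSO replicate 1). The cyclins Ccnd1 and Ccnd2 rose (0.99 and 0.44), while the CDK inhibitors Cdkn2b (p15, a known TGFß target) and Cdkn1a (p21) fell. Cdkn2b went from 27.3, 26.1 and 25.6 RPKM to 16.2, 18.6 and 16.6 RPKM (-0.61, adjusted p = 0.00157) and Cdkn1a from 18.9, 19.6 and 22.3 RPKM to 14.3, 12.9 and 11.5 RPKM (-0.63, adjusted p = 0.00526). Another CDK inhibitor, Cdkn1c (p57), rose from 1.22 ± 0.247 to 2.46 ± 0.278 RPKM (0.79).

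Of 45 ribosome biogenesis genes, 18 were higher and 0 lower (median 0.21), and the call of 1, Rrs1 (0.30, adjusted p = 0.00792), held. Of 79 cytosolic ribosomal proteins 8 were higher and 0 lower, a share of 10.1%, near the 10.2% of all genes, and their median was 0.15, or 0.06 after quantile normalization. Without DMSO replicate 1 the higher genes numbered 31 and 57, read against 19.9% of all genes in that fit.

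**Figure D4:**
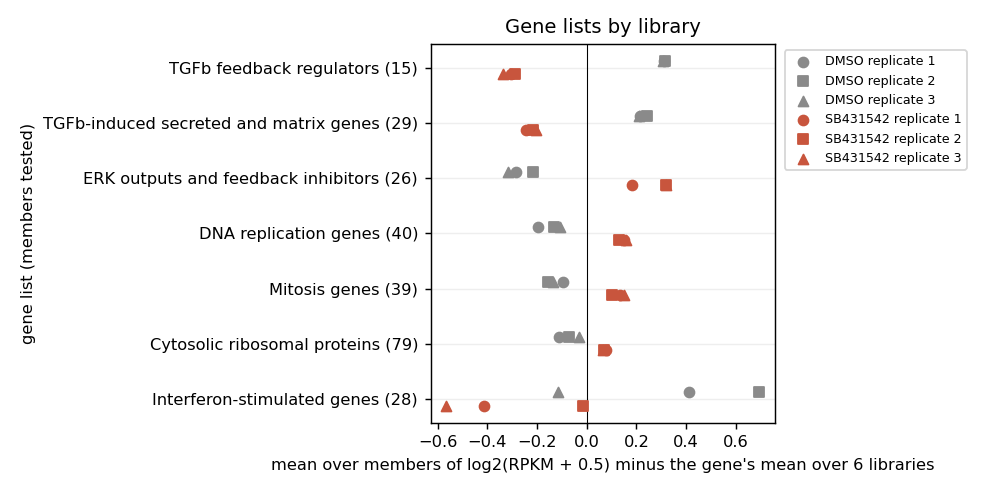
Mean over the tested members of a list of log2(RPKM + 0.5) minus the mean of that gene over the 6 libraries. Grey symbols are the 3 DMSO libraries and red symbols the 3 SB431542 libraries, with 1 shape for each replicate number. The groups are apart in the first 6 lists, most in the TGFß feedback regulators (0.306 to 0.314 against -0.338 to -0.289), while interferon-stimulated genes range from -0.114 to 0.695 in DMSO and from -0.565 to -0.0134 with SB431542.

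Of 22 hemidesmosome and desmosome genes, which attach basal cells to the basement membrane and to each other, 10 were lower and 0 were higher (median -0.17), and 6 held. The fit that left out DMSO replicate 1 gave 13 and 2. Col17a1, which anchors basal cells to the basement membrane, went from 774, 721 and 726 RPKM to 510, 512 and 502 RPKM (-0.54, adjusted p = 0.00103). The laminin chain Lama3 (-0.76), part of a laminin of the basement membrane, the plakin Dst (-0.57), the desmosomal plaque protein Pkp1 (-0.61) and the cadherin Dsg3 (-0.42) also held. Of 9 keratins, 4 were lower and 1 was higher (5 and 1 without DMSO replicate 1). Krt14, one of the most abundant transcripts of the cells, fell from 4076 ± 187 to 2320 ± 77.2 RPKM (-0.81, adjusted p = 4.02e-04) and Krt17 from 1512 ± 24.9 to 1011 ± 54.6 RPKM (-0.58, adjusted p = 0.00131), while Krt5, the partner of Krt14, was lower by -0.30, a call that did not hold. Of 10 integrin subunits, 5 were lower and 1 was higher (6 and 1 without that library). Itgb5 (-0.77) and Itgb8 (-0.68), whose dimers with the alpha-v chain can bind latent TGFß, held.

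The study concerns cells in which the actin-regulated cofactor MRTF is nuclear, so targets of MRTF and of YAP were counted. Of 30 cytoskeletal MRTF/SRF targets, 11 were lower and 1 was higher (median -0.15; 16 and 2 without DMSO replicate 1). The 5 that held were Filip1l (-1.03), the LIM protein Pdlim7 (-1.02), tropomyosin 1 (Tpm1, -0.62), the myosin heavy chain Myh9 (-0.40) and vinculin (Vcl, -0.30). Pdlim7 went from 35.9, 33.3 and 31.1 RPKM to 16.4, 16.1 and 16.3 RPKM (adjusted p = 1.46e-04). For Filip1l, DMSO replicate 1 was far above the other controls (70.3, 47.1 and 43.9 RPKM, against 25.2, 24.7 and 26.7 RPKM with SB431542). A broader MRTF signature of the study holds SRF targets by ChIP-seq that also changed in BCC cells given an MRTF inhibitor. The methods of the study allow changes both ways, while the description of its list names falls only. This signature had 128 lower and 200 higher of 1057 genes tested (median 0.05). These are 12.1% and 18.9%, against 10.0% and 10.2% of all genes, and 68 lower and 60 higher genes held. Without DMSO replicate 1 it had 201 and 312, where 17.5% of all genes were lower and 19.9% higher. Of 22 YAP/TAZ targets, 10 were lower and 4 were higher (median -0.22), 8 of the falls held and none of the rises, and without DMSO replicate 1 there were 12 and 5. Besides Ctgf and Cyr61 these were Gadd45b (-0.86), Lats2 (-0.59), Rbms3 (-0.50), Ptpn14 (-0.50), Nt5e (-0.49) and Amotl2 (-0.47), among which Lats2, Ptpn14 and Amotl2 are themselves inhibitors of YAP. Gadd45g, a growth arrest gene of the same family as Gadd45b, fell from 13.467, 12.977 and 13.802 RPKM to 5.09, 5.14 and 5.45 RPKM (-1.28, adjusted p = 4.01e-05) and was singled out after its values were seen.

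Hedgehog signaling drives BCC, and 3 of 18 pathway genes were lower and 4 higher. These are shares of 16.7% and 22.2%, against 10.0% and 10.2% of all genes, and 2 lower and 2 higher genes held. Without DMSO replicate 1 there were 3 and 5 genes, where 17.5% of all genes were lower and 19.9% higher. Gli1, a factor and readout of the pathway, was at 2.35, 2.33 and 2.51 RPKM in DMSO and at 1.61, 1.48 and 1.17 RPKM with SB431542 (-0.60, adjusted p = 0.00977). The groups were apart by more than the range of either. Boc, a coreceptor for Hedgehog ligands, fell from 5.757, 5.995 and 5.688 RPKM to 3.75, 3.60 and 3.55 RPKM (-0.61, adjusted p = 0.00123). In contrast Ccnd2 and Bcl2, which GLI factors can induce, rose by 0.44 and 0.40 and held. Arhgef17, an exchange factor for small GTPases studied in the same work, was lower by -0.27 (adjusted p = 0.0176), a call lost without DMSO replicate 2 or any SB431542 library.

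Interferon-stimulated genes had the lowest median of all lists, -0.61 over 28 genes, but their libraries were scattered. Only 7 were lower and 0 were higher (11 and 1 without DMSO replicate 1), and no call held. Isg15, a ubiquitin-like protein, was at 8.36, 13.3 and 3.19 RPKM in DMSO and at 1.31, 3.29 and 1.013 RPKM with SB431542 (-1.81, standard error 0.51, adjusted p = 0.0442), so that DMSO replicate 3 lay below SB431542 replicate 2. The same libraries stood out in Usp18 (5.15, 7.21 and 1.21 RPKM against 0.837, 1.29 and 0.433 RPKM), with DMSO replicate 3 low and SB431542 replicate 2 high for its group. The mean deviation of the list from the mean of the 6 libraries ranged from -0.114 to 0.695 among DMSO libraries and from -0.565 to -0.0134 with SB431542.

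T-5224 inhibits AP-1, a partner of SMADs on DNA, and was given to ASZ001 cells at 20 µM for 24 h with separate DMSO controls (2 libraries each). For 25 genes tested in both tables, those with the largest changes, the called feedback regulators and genes called beyond 2-fold in opposite directions, the change with SB431542 was tested against the change with T-5224 over all 10 libraries, and 22 differed at an adjusted p under 0.05 (limma). Among the 10462 genes tested in both experiments, 63.2% differed in this way. The doses differ, and so do the DMSO levels of the experiments, so the sizes are set side by side only. Etv5 was at 2.87, 2.93 and 2.29 RPKM in the DMSO libraries beside SB431542 and at 0.350 and 0.245 RPKM in those beside T-5224, and Ackr3 at 17.0, 15.1 and 17.9 RPKM and at 46.2 and 48.2 RPKM. Which part of a difference goes with these levels was not tested. Skil fell with SB431542 (-1.47) but had -0.16 with T-5224 (8.77 and 7.97 RPKM in DMSO, 7.33 and 7.52 RPKM with T-5224). The difference of -1.31 had an adjusted p of 1.39e-06. Tgif1 fell with SB431542 and rose with T-5224 (-0.67 and 1.11), while Ctgf had -2.31 with SB431542 and -2.26 with T-5224 (adjusted p of the difference = 0.738).

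There were 3 genes called beyond 2-fold in opposite directions, and as they were chosen for this their values are a description. Nupr1, a stress-induced chromatin protein, was at 22.278, 14.994 and 13.218 RPKM in DMSO and at 6.97, 7.55 and 7.43 RPKM with SB431542 (-1.11, adjusted p = 0.00577), but went from 7.23 and 6.91 RPKM to 206 and 198 RPKM with T-5224 (4.74). Bpifc, of a family of lipid-binding proteins, fell by 1.33 with SB431542 and had 3.60 with T-5224, where it went from 9.89 and 9.78 to 127 and 123 RPKM. Nov rose by 1.09 with SB431542 and fell from 12.3 and 12.4 to 4.63 and 4.52 RPKM with T-5224 (-1.34). The change with SB431542 minus that with T-5224 was -5.86, -4.93 and 2.44.

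**Figure D5:**
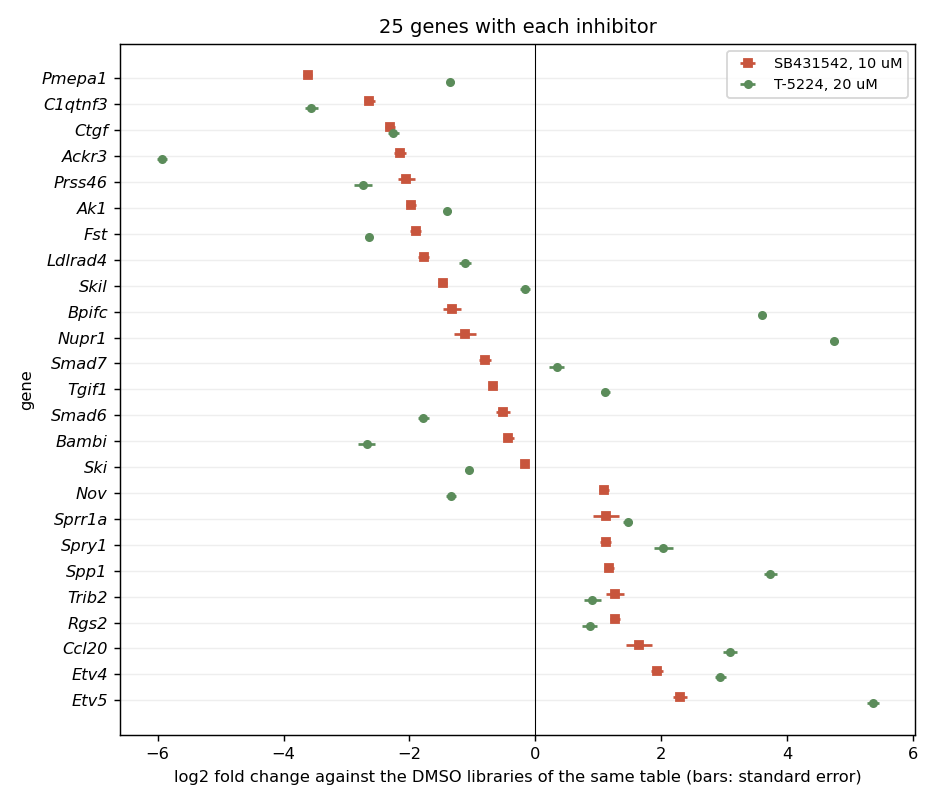
Log2 fold change of 25 genes with 10 µM SB431542 (squares, 3 libraries a group) and 20 µM T-5224 (circles, 2 libraries a group), each against its own DMSO libraries, with standard errors. Genes are ordered by the change with SB431542. Skil sits near 0 with T-5224 only, and Nupr1, Bpifc, Tgif1, Smad7 and Nov lie on opposite sides of 0.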

How the data were processed

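The authors aligned stranded mRNA-seq reads to mm9 with TopHat and deposited RPKM per gene and library, made with HOMER, whose counting strand is not given in the sources used here. Counts were not used here, and depth was read from the steps of whole reads in short genes (at least 99.3% of the values within 0.05 of a read). Rows with a date for a name (22) were left out, and genes with a mean of at least 1 RPKM were kept. SB431542 was compared with DMSO by limma 3.58.1 (R 4.3.3, mean-variance trend, Benjamini-Hochberg adjustment) on log2(RPKM + 0.5), after a test on simulated data. Gene lists and members were chosen with earlier results of these data known, and lists were counted, not tested. Named genes are the 10 largest falls and rises beyond 2-fold, the 10 of each with the smallest adjusted p at 2-fold or less (all without overlap between groups), list members, genes opposite with T-5224, and Gli1, Arhgef17, Tgfbr1, Acvr1b and Acvr1c. Some genes that the rule names are not reported here. Positions are from GENCODE on NCBIM37, the assembly of mm9. Alternatives changed the pseudocount, filter, scaling, trend, weights, replicate block and libraries.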

Additional observations from a re-analysis of the deposited data

Results flagged for a closer look

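The change with SB431542 differed from the change with T-5224 in 22 of 25 genes compared, by a test of the difference itself (limma, adjusted p under 0.05). Among the 10462 genes tested in both experiments, 63.2% differed, and the 25 were picked for large or opposite changes, so the share is a description. Nupr1, Bpifc and Nov were picked for opposite changes, which fixes the outcome of their test. The doses were 10 µM and 20 µM, and the DMSO levels of the experiments differed, for example in Ccl20 (3.069, 4.840 and 2.997 RPKM beside SB431542, 0.508 and 0.541 RPKM beside T-5224). The values are log2 fold changes with SB431542 minus those with T-5224. Among genes that fell with SB431542, the difference was negative for Nupr1 (-5.86), Bpifc (-4.93), Pmepa1 (-2.27), Tgif1 (-1.78), Skil (-1.31), Smad7 (-1.14), Ldlrad4 (-0.66) and Ak1 (-0.57). It was positive for Ackr3 (3.78), Bambi (2.25), Smad6 (1.26), C1qtnf3 (0.92), Ski (0.89), Fst (0.74) and Prss46 (0.68), which fell further with T-5224. Among genes that rose with SB431542, it was -3.07 for Etv5, -2.56 for Spp1, -1.45 for Ccl20, -1.006 for Etv4 and -0.92 for Spry1, and it was 2.44 for Nov and 0.40 for Rgs2. Groups of 3 libraries are too small for a test of single outlying values.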

How the results depend on the processing

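The numbers of lower and higher genes (1085 and 1107) depended most on the libraries. Leaving out 1 library gave 433 to 1900 lower and 300 to 2163 higher genes, the highest counts without DMSO replicate 1 and the lowest without SB431542 replicate 3 (lower) or 2 (higher), and array weights gave 2096 and 2302. With a replicate block there were 699 lower and 572 higher genes. Deviations of same-numbered libraries correlated at -0.148, 0.151 and -0.0949, and those of differently numbered ones at -0.171 to 0.196. With 3 libraries a group, such values cannot decide whether the replicate numbers pair the samples. Beyond 2-fold (63 and 25 genes), a mean of at least 5 RPKM gave 41 and 10, and a fold limit of 1.5 gave 254 and 130. Pseudocounts of 0.1 and 1 gave 38 and 12 genes that rose, and leaving out 1 library gave 55 to 77 lower and 19 to 31 higher. Other settings stayed within 1.5 times. Of 398 named genes followed, 0 changed direction under any alternative, 260 kept their side of the threshold under all alternatives that used every library, and 203 under all alternatives. The chosen fold limit acts on log2(RPKM + 0.5), which understates the change of low genes.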

Other observations

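Some genes of amino acid supply rose with SB431542. Of 33 genes of the ATF4 and amino acid response, 10 were higher and 1, Nupr1, was lower (median 0.16), and 5 of the rises held in each fit with 1 library left out. Without DMSO replicate 1, 11 were higher and 5 lower (median 0.09), with 19.9% and 17.5% of all genes called in that fit. The serine synthesis enzyme Psat1 went from 125, 144 and 129 RPKM to 218, 236 and 219 RPKM (log2 fold change 0.76, adjusted p = 6.90e-04, limma), the amino acid transporter Slc7a5 from 75.5 ± 11.4 to 124 ± 5.84 RPKM (0.72) and Atf4 itself, the factor that induces them, from 114 ± 5.79 to 167 ± 9.63 RPKM (0.55). Slc7a1 (0.48) and Mthfd2 (0.47) also held. Of 26 NRF2 targets 8 were higher and 2 lower (12 and 3 without DMSO replicate 1, which moved the median from 0.17 to 0.11), with Gsta4 (0.85), Txnrd1 (0.40) and Gclm (0.34) held. Of 19 glycolysis genes, 3 were higher and 2 lower (median 0.13; 10 and 3 without DMSO replicate 1). These are shares of 15.8% and 10.5%, against 10.2% and 10.0% of all genes. Hk2, the first enzyme of glycolysis, rose by 0.64, while the glycolysis enzyme Aldoc fell by 0.70 and the glucose transporter Slc2a1 by 0.34.

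Among 11 FGF receptors and ligands tested, 3 were lower and 2 higher, and 3 and 1 of these held. The counts were 4 and 2 without DMSO replicate 1. The receptors Fgfr2 and Fgfr3 moved apart. Fgfr2 fell from 46.8, 45.8 and 48.3 RPKM to 32.2, 30.3 and 28.3 RPKM (-0.63, adjusted p = 9.94e-04, limma) and Fgfr3 rose from 4.37, 5.91 and 6.06 RPKM to 10.6, 9.99 and 8.88 RPKM (0.81, adjusted p = 0.00608), and the ligands Fgf1 (-0.91) and Fgf5 (-0.71) fell. A list of 23 tested factors of epithelial-mesenchymal transition, cadherins and related genes had 4 lower and 6 higher (median 0.06). Calls that held numbered 4 and 1 in that list, and without DMSO replicate 1 it had 5 lower and 6 higher. In it, vimentin (Vim), a mesenchymal filament that TGFß often raises, was higher with SB431542 at 3.67 ± 0.590 RPKM against 1.91 ± 0.0998 RPKM (0.78, adjusted p = 0.00434). The mesenchymal cadherins Cdh11 (-0.76) and Cdh2 (-0.47) fell. Of 13 Notch pathway genes 4 were lower, among them the ligand Jag1 (-0.61) and the target Hes1 (-0.52), and 1 was higher. Of 20 Wnt genes 6 were lower, among them Wnt4 (-0.55) and the R-spondin receptor Lgr4 (-0.66), and 3 were higher, namely Tcf7 (0.75), Ccnd1 (0.99) and the feedback inhibitor Axin2 (0.35). The BMP receptor Acvr1 fell by 0.47 on the log2 scale, 1 of 4 lower genes of 22 in the BMP list, where 3 were higher. Of all genes tested, 10.0% were lower and 10.2% higher. Calls lower and higher that held numbered 2 and 0 for Notch, 2 and 2 for Wnt and 1 and 0 for BMP genes. Without DMSO replicate 1 the counts were 5 and 4, 8 and 6, and 7 and 5. That fit called 17.5% of all genes lower and 19.9% higher. Pecam1, an adhesion molecule of endothelial cells, fell from 5.75 ± 0.718 to 2.69 ± 0.127 RPKM (-0.97, adjusted p = 0.00103), while the endothelial genes Cdh5 and Kdr were at 0 or not listed and the summed level of endothelial markers was 19.9 to 23.9 RPKM in DMSO and 17.7 to 19.9 RPKM with SB431542.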
